A study of Rattus norvegicus with 9 samples.

Results

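Transcripts of antioxidant enzymes and of targets of the transcription factor NRF2 were followed in the livers of young and old rats. The set was a list of 31 gene symbols that covers superoxide, peroxide, glutathione, thioredoxin, NADPH and metallothionein genes. The table writes symbols in capitals, such as NFE2L2, KEAP1 and NQO1, and they are given here in rat spelling (Nfe2l2, Keap1, Nqo1). Of these, 30 were found by symbol among the 23479 genes of the count table, and 29 of the 30 passed a filter on low counts. Slc7a11 was in the table but fell under the filter, and Pgd was not analysed here. Poly(A) RNA was sequenced from the liver of 9 male Wistar rats, an outbred laboratory strain. The young group held 5 animals aged 6 months (young 1 to 5) and the old group 4 animals aged 24 months (old 1 to 4). The labels name no treatment, diet or allele, and strain, sex and tissue were the same in both groups. Each library came from a different animal, so the comparison asks how liver transcript levels differ between these ages in males of this strain.

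NRF2, encoded by Nfe2l2, is a transcription factor that switches on genes of antioxidant defence and detoxification. In unstressed cells the adaptor KEAP1 binds NRF2 and delivers it for degradation, and oxidants or electrophiles that modify KEAP1 let NRF2 build up and bind antioxidant response elements with small MAF proteins. The pathway is regulated largely at the level of the NRF2 protein, which RNA counts do not measure. Superoxide dismutases turn superoxide into hydrogen peroxide, which catalase splits without an added electron donor. Glutathione peroxidases and peroxiredoxins reduce it with glutathione or thioredoxin, and both donors are regenerated with NADPH. The liver makes large amounts of glutathione and exports it, and it stores zinc and copper on metallothioneins.

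Total counts ran from 18586798 to 32882704 per library. Old 1 held even counts throughout: 0 of its values were odd, while the remaining libraries held 8112 to 8350 odd values each. The 10 hepatocyte markers were all detected, and their sum was 175437 to 194999 CPM (read counts scaled to library depth) among young and 210632 to 319414 CPM among old livers. Alb held the largest part of this sum, at 102158 to 110740 CPM among young and 132487 to 220780 CPM among old livers. The ranges of all the other hepatocyte markers overlapped between the ages, and edgeR called 1 of the 10 higher and 0 lower. The 9 of 11 listed red cell markers in the table, none at 0 throughout a group, summed to 78.5 to 443 CPM among young and 590 to 2472 CPM among old livers, with no overlap. The 20 heart muscle markers summed to 109 to 136 CPM in young 2 to 5, to 14.0 CPM in young 1 and to 3.97 to 7.98 CPM in old livers, in which 9 of the 20, among them Myh6, Myh7 and Actc1, had no count. Myh6, Myh7 and Actc1 had no count in young 1 either, where Ryr2 (7.05 CPM) and Actn2 (5.71 CPM) held most of the sum. The 10 neutrophil and monocyte markers summed to 223 CPM in old 3, with 11.9 CPM as the highest sum elsewhere.

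No antioxidant gene passed the test for a difference between the ages. By edgeR's quasi-likelihood test with Benjamini-Hochberg adjustment over all 12778 genes tested, 0 of 29 were called higher or lower at an adjusted p under 0.05, where 1.00% of all genes were called (0.657% higher and 0.344% lower). The smallest adjusted p was 0.0902, for Srxn1. An unadjusted p under 0.05 was found for 6 of 29, namely Nqo1, Osgin1, Gpx1 and Prdx6 with larger and Srxn1 and Gpx3 with smaller old values, against 15.9% of all genes (8.94% with larger and 6.96% with smaller old values). DESeq2 gave 4 of 29 an adjusted p under 0.05 (Prdx6, Srxn1, Osgin1 and Nqo1), against 4.74% of all genes it adjusted, and limma-voom gave 0, against 0.532%. The groups did not overlap for 2 of 29 genes, Prdx6 with old above and Srxn1 with old below, against 6.53% of all genes (3.40% old above and 3.12% old below). The fitted log2 fold change, old over young, was above 0 for 13 genes and below 0 for 16, with a median of -0.06 beside 0.01 over all genes tested, of which 51.2% were above 0.

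Many of the estimates were narrow. For 19 of the 29 genes the 95% interval of the edgeR change lay wholly within 1.5-fold in either direction, against 50.5% of all genes. The intervals of the 10 others reached past 1.5-fold; these were Nqo1, Osgin1, Gclc, Sod1, Gpx1, Gpx2, Gpx3, Srxn1, Mt1a and Mt2A.

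**Figure D1:**
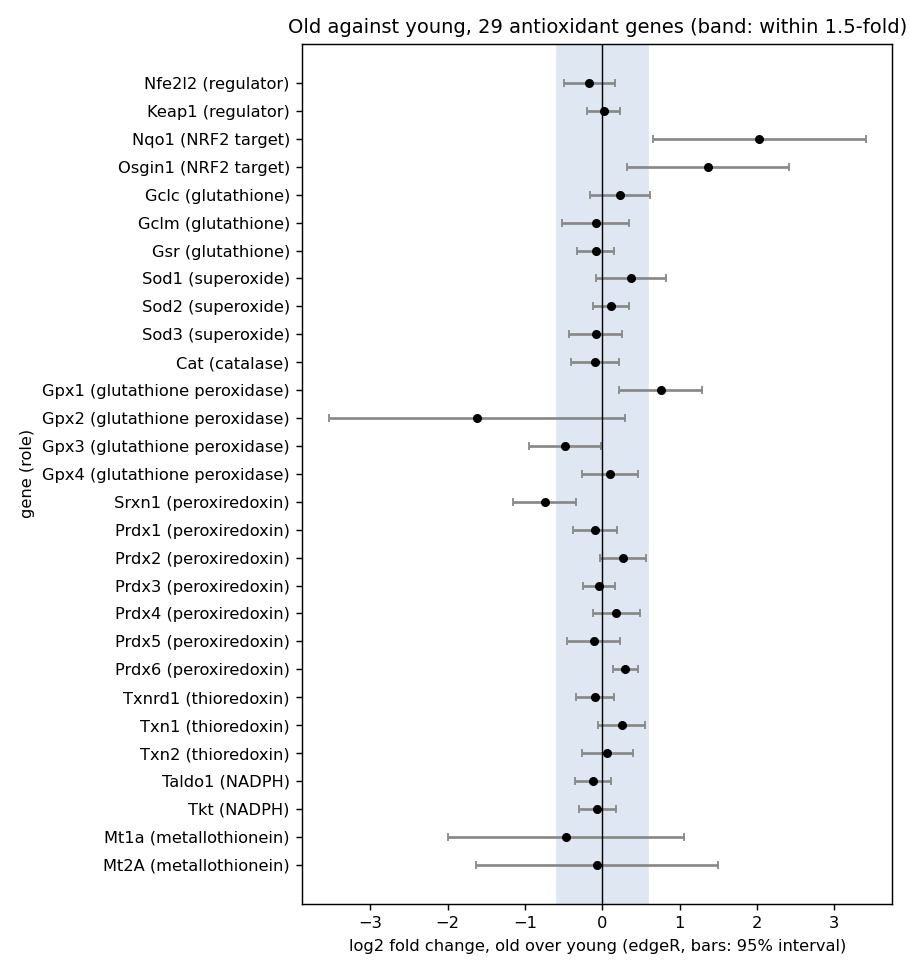
Log2 fold change of 29 antioxidant and NRF2 pathway genes, old over young, from edgeR with bars for the 95% interval (5 young and 4 old rats), grouped by role; the shaded band marks changes within 1.5-fold. Nqo1 at 2.03 and Osgin1 at 1.37 lie farthest to the right and Gpx2 at -1.62 farthest to the left, while 19 intervals stay inside the band.

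Neither regulator passed the test. Nfe2l2 lay at 191, 242, 159, 197 and 161 CPM in young 1 to 5 and at 201, 147, 153 and 175 CPM in old 1 to 4. The groups overlapped, with young 2 the highest and old 2 the lowest liver, and the log2 fold change was -0.17 ± 0.15 (SE), at an edgeR adjusted p of 0.600 with a 95% interval from -0.50 to 0.16. Keap1 ranged from 45.4 to 56.7 CPM among young and from 44.0 to 53.9 CPM among old livers. Its log2 fold change was 0.02 ± 0.10 (adjusted p = 0.936; interval -0.19 to 0.23).

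Nqo1 encodes a quinone reductase that is a standard readout of NRF2 activity. It lay at 21.5, 9.35, 6.32, 8.06 and 5.13 CPM in young 1 to 5 and at 47.7, 6.21, 49.4 and 61.8 CPM in old 1 to 4. Old 1, old 3 and old 4 were above every young liver, while old 2 lay among the lowest young values, and young 1 stood above the other young livers. The group means were 10.1 ± 6.58 CPM (SD, n = 5) and 41.3 ± 24.2 CPM (SD, n = 4). The log2 fold change was 2.03 ± 0.61 (SE), with a 95% interval from 0.66 to 3.41, an unadjusted edgeR p of 0.00848 and an adjusted p of 0.156. DESeq2 gave an adjusted p of 0.0494, and without old 2 edgeR gave 0.0298, at a log2 fold change of 2.39. Since old 2 had the lowest Nqo1 value of the old livers, leaving it out had to give a larger difference. Over the alternative fits that kept more than 1 young liver (other scalings, filters, tests and sets of libraries) the adjusted p ran from 0.0298 to 0.428.

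Osgin1, an NRF2 target that is induced by oxidative stress and restrains cell growth, was highest in old 1. It lay at 92.5, 86.2, 69.9, 154 and 88.5 CPM in young 1 to 5 and at 569, 181, 166 and 98.8 CPM in old 1 to 4. Old 1, the library of even counts, stood far above the rest, and old 4 lay within the young range. The log2 fold change was 1.37 ± 0.47 (edgeR adjusted p = 0.204; DESeq2 0.0350) and was 0.60 without old 1 (adjusted p = 0.353). Adjusted p ran from 0.0350 to 0.504 over the same fits. Nqo1 and Osgin1 did not rank the old livers alike: old 4 had the highest Nqo1 and the lowest Osgin1 value of the group.

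None of the genes of glutathione supply passed the test. Gclc, the catalytic subunit of the enzyme that limits glutathione synthesis, ranged from 92.5 to 147 CPM among young and from 99.4 to 175 CPM among old livers, with a log2 fold change of 0.23 ± 0.17 (edgeR adjusted p = 0.537). Gclm, its modifier subunit, ranged from 56.5 to 109 CPM among young and from 58.0 to 87.8 CPM among old livers, with a log2 fold change of -0.08 ± 0.20 (adjusted p = 0.856). Gsr, which reduces oxidised glutathione with NADPH, lay at 68.1 to 94.5 CPM and 68.8 to 86.2 CPM, with a log2 fold change of -0.09 ± 0.11 (adjusted p = 0.724). All these ranges overlapped. Slc7a11, the cystine importer that supplies cysteine for glutathione in many cells, was counted 1, 1, 1, 4 and 5 times in young 1 to 5 and 4, 4, 3 and 4 times in old 1 to 4. These values lie around the limit of 3 counts that a count of 0 allows (0.106 to 0.173 CPM), so no difference was detectable at this depth.

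**Figure D2:**
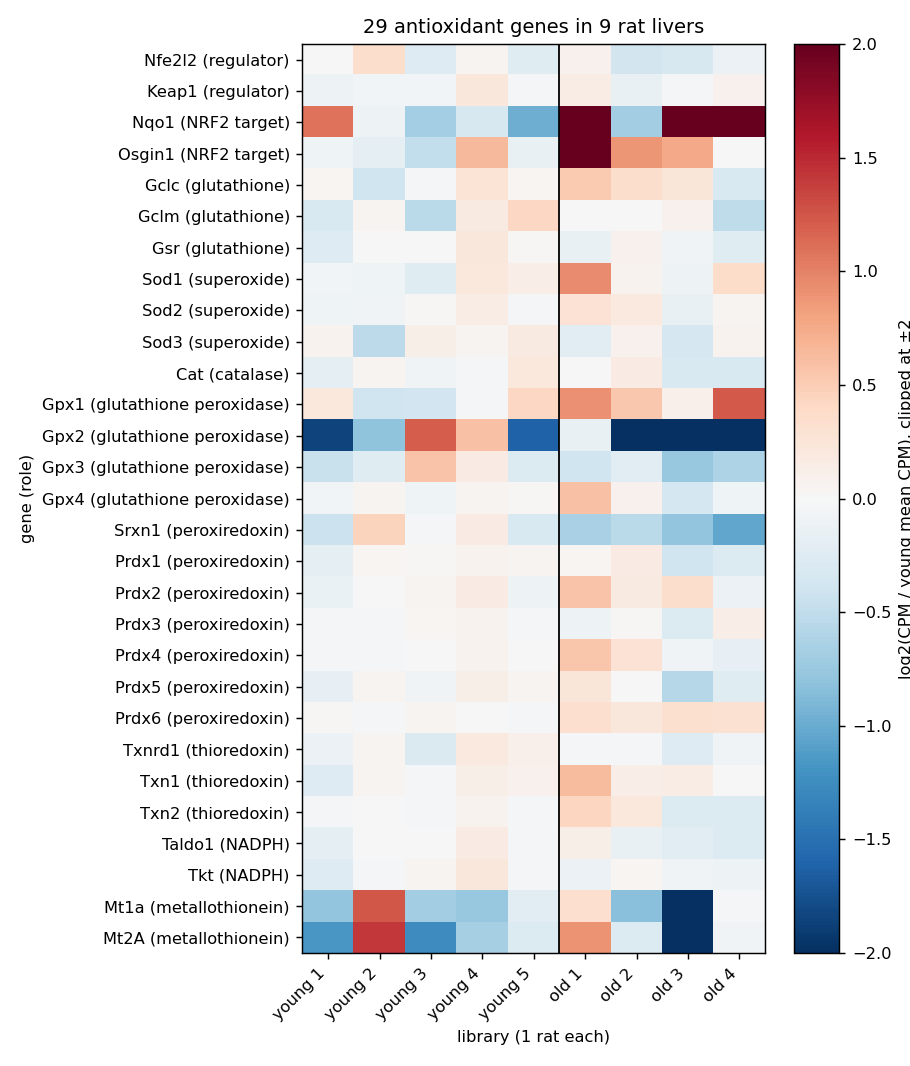
Colour gives the log2 ratio of each liver's CPM to the young mean, clipped at ±2, for 29 genes (rows, with role) in 5 young and 4 old rats (columns). Nqo1, Osgin1, Gpx2 and the metallothioneins carry the strong colours, Srxn1 is blue and Prdx6 pale red in all 4 old livers, and most other rows stay near white.

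Superoxide dismutases did not separate the ages. Sod1, the cytosolic copper and zinc enzyme, lay at 542 to 744 CPM in young livers and at 1237, 674, 599 and 827 CPM in old 1 to 4. Old 1 and old 4 lay above the young range and the others within it (log2 fold change 0.37 ± 0.20, edgeR adjusted p = 0.404). Sod2, the mitochondrial manganese enzyme, lay at 103 to 122 CPM and 99.2 to 135 CPM (log2 fold change 0.11 ± 0.11, adjusted p = 0.638). Sod3, the secreted enzyme, lay at 14.7 to 23.7 CPM and 16.6 to 22.4 CPM (log2 fold change -0.09 ± 0.15, adjusted p = 0.805).

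Catalase, the peroxisomal enzyme that splits hydrogen peroxide, did not pass the test. Cat lay at 3544, 4184, 3835, 3968 and 4679 CPM in young 1 to 5 and at 4066, 4530, 3280 and 3267 CPM in old 1 to 4. Old 3 and old 4 were below all young livers, and old 1 and old 2 within their range. The log2 fold change was -0.09 ± 0.14 (edgeR adjusted p = 0.768; interval -0.41 to 0.22).

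Among the glutathione peroxidases, Gpx1, the ubiquitous cytosolic selenoenzyme, had larger values in 3 of 4 old rats. It lay at 835, 552, 558, 712 and 964 CPM in young 1 to 5 and at 1357, 1047, 775 and 1704 CPM in old 1 to 4. Old 1, old 2 and old 4 were above every young liver, and old 3 lay inside the young range. The means were 724 ± 178 CPM (SD, n = 5) and 1221 ± 400 CPM (SD, n = 4), with a log2 fold change of 0.75 ± 0.24 (SE; interval 0.21 to 1.30), an unadjusted edgeR p of 0.0112 and an adjusted p of 0.176. Red cells also hold Gpx1. The sum of their markers was higher in all old livers (at 1712, 590, 2472 and 1356 CPM in old 1 to 4). Hbb and Hba1 held most of this sum, and edgeR called 4 of the 7 tested markers higher and 0 lower. Slc4a1 lay lower in old 1 (3.03 CPM) than in young 1 (5.49 CPM). Old 3, with the highest red cell sum, had the lowest Gpx1 value of the old group, and the part of red cell RNA in the Gpx1 difference was not tested. In whole tissue, a different number of cells of a type and a different amount of RNA per cell cannot be told apart.

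Gpx4, which removes lipid hydroperoxides from membranes, lay at 135 to 149 CPM in young livers and at 213, 152, 112 and 134 CPM in old 1 to 4. The old values spread to both sides of the young ones, with a log2 fold change of 0.10 ± 0.16 (edgeR adjusted p = 0.798). Gpx3, the secreted plasma enzyme, lay at 10.9, 12.6, 22.0, 16.6 and 12.3 CPM in young 1 to 5 and at 11.3, 12.8, 8.81 and 9.70 CPM in old 1 to 4. Only old 3 and old 4 lay below the young range (log2 fold change -0.48 ± 0.21, unadjusted p = 0.0458, adjusted p = 0.305). Gpx2, best known from the gut epithelium, was counted 8, 17, 54, 34 and 7 times in young 1 to 5 and 28, 2, 3 and 2 times in old 1 to 4. Old 2 to 4 lay at or under the floor of 3 counts and old 1 within the young range. Its log2 fold change was -1.62 ± 0.86 (adjusted p = 0.394) and was -3.24 without old 1 (adjusted p = 0.167).

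Peroxiredoxins reduce peroxides through a reactive cysteine, and sulfiredoxin, encoded by Srxn1, repairs those whose cysteine has been overoxidised. Prdx6, the peroxiredoxin that uses glutathione and also acts on phospholipids, had the tightest values of the set. It lay at 122, 119, 124, 120 and 117 CPM in young 1 to 5 and at 152, 141, 151 and 149 CPM in old 1 to 4. Every old liver was above every young one. The means were 120 ± 2.91 CPM (SD, n = 5) and 148 ± 4.90 CPM (SD, n = 4), a fitted ratio of 1.23 (95% interval 1.10 to 1.38; log2 0.30 ± 0.07). The edgeR adjusted p was 0.0964 (unadjusted 0.00235), and DESeq2 gave an adjusted p of 1.73e-05. With library totals as the only scaling, where the median log2 change of all genes was -0.17, the log2 fold change of Prdx6 was 0.12 (edgeR adjusted p = 0.383). Over the alternative fits that kept more than 1 young liver, adjusted p ran from 1.73e-05 to 0.383.

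Srxn1 lay at 21.9, 40.2, 28.8, 33.2 and 24.1 CPM in young 1 to 5 and at 19.0, 20.3, 17.1 and 14.4 CPM in old 1 to 4. Every old liver was below every young one, by a small gap between old 2 and young 1. The means were 29.6 ± 7.35 CPM (SD, n = 5) and 17.7 ± 2.55 CPM (SD, n = 4), with a log2 fold change of -0.75 ± 0.18 (SE; interval -1.15 to -0.34). The edgeR adjusted p was 0.0902 (unadjusted 0.00203), while DESeq2 gave 0.00932 and edgeR with library totals only gave 0.0328. With library totals only, the median log2 change of all genes was -0.17. That fit called 208 of all genes lower, against 44 in the main fit. Adjusted p for Srxn1 ran from 0.00932 to 0.204 over the alternative fits with more than 1 young liver. The sum of heart muscle markers and Srxn1 were both lower in every old liver than in every young one. Among young livers both were lowest in young 1, where the markers summed to 14.0 CPM. Ryr2 (7.05 CPM) and Actn2 (5.71 CPM) held most of that sum. Myh6, Myh7 and Actc1 had no count in young 1 or in any old liver. The remaining young livers all held 109 to 136 CPM of heart muscle markers, but their order differed from that of Srxn1. Young 5, with 24.1 CPM of Srxn1, held 123 CPM of markers, and young 2, with 40.2 CPM of Srxn1, held 121 CPM. With young 1 as the only young liver the log2 fold change of Srxn1 was -0.30, a value with no replicate in the young arm and given without a test. Since young 1 had the lowest Srxn1 value of the young livers, that fit had to give a smaller difference, whatever its heart markers. The part of heart RNA in the difference was not tested.

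**Figure D3:**
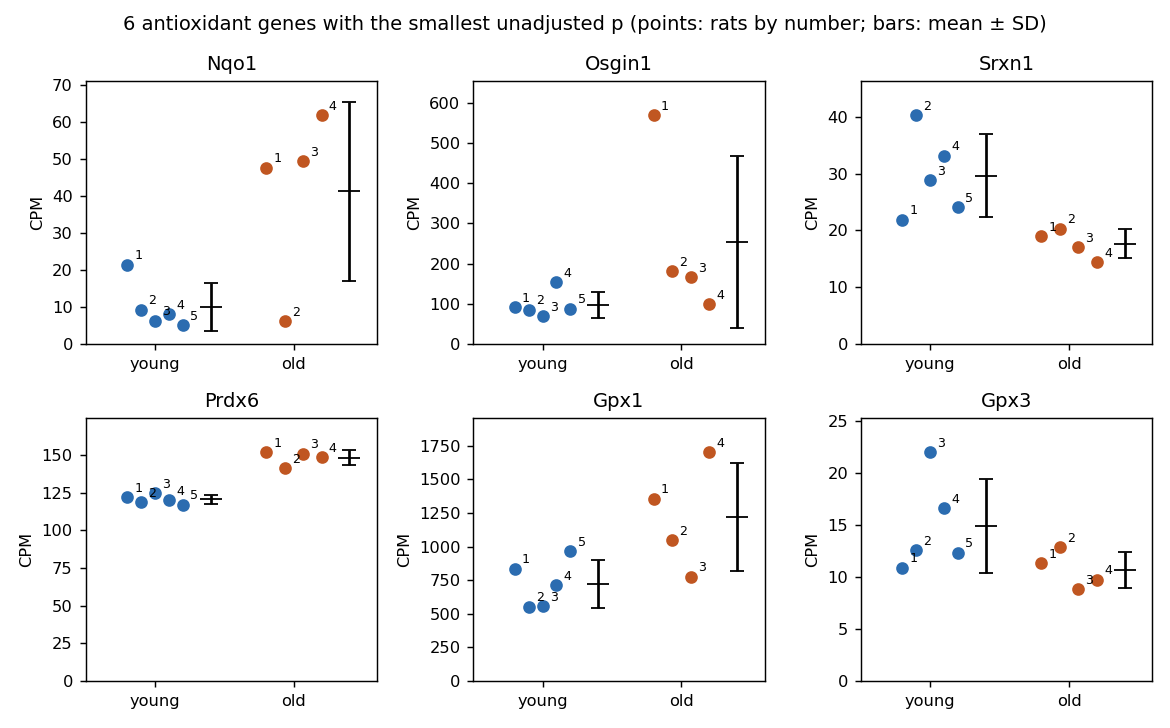
CPM of the 6 genes with an unadjusted edgeR p under 0.05 in each rat (points, labelled with the animal's number) with the mean and SD of each group (bars; 5 young, 4 old). The groups are apart for Srxn1 and Prdx6 and overlap for Nqo1, Osgin1, Gpx1 and Gpx3, with old 2 low for Nqo1 and old 1 at 569 CPM for Osgin1.

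Exact two-sided permutation tests of mean log2 CPM over all splits of the 9 livers into 5 and 4 gave p = 0.00794 for Prdx6, the smallest value these splits allow, p = 0.0159 for Srxn1 and p = 0.0794 for Nqo1. These 3 genes were chosen for this after their values had been seen, and the p-values are not adjusted for that choice.

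None of the other peroxiredoxins passed the test. Log2 fold changes were -0.10 ± 0.13 for Prdx1 and 0.27 ± 0.13 for Prdx2, both cytosolic enzymes (edgeR adjusted p = 0.734 and 0.366). They were -0.04 ± 0.09 for the mitochondrial Prdx3, 0.18 ± 0.14 for Prdx4 of the endoplasmic reticulum and -0.11 ± 0.15 for Prdx5 (adjusted p = 0.840, 0.546 and 0.743). Prdx2, which is abundant in red cells, lay at 60.5 to 74.7 CPM in young livers and at 99.4, 75.3, 85.1 and 61.2 CPM in old 1 to 4. Old 1 to 3 were above the young range and old 4 was near its lower end, at 1356 CPM of red cell markers. The part of red cell RNA in these values was not tested. Prdx4 lay within 65.7 to 71.4 CPM in all young livers but spread from 60.1 CPM in old 4 to 99.6 CPM in old 1.

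**Figure D4:**
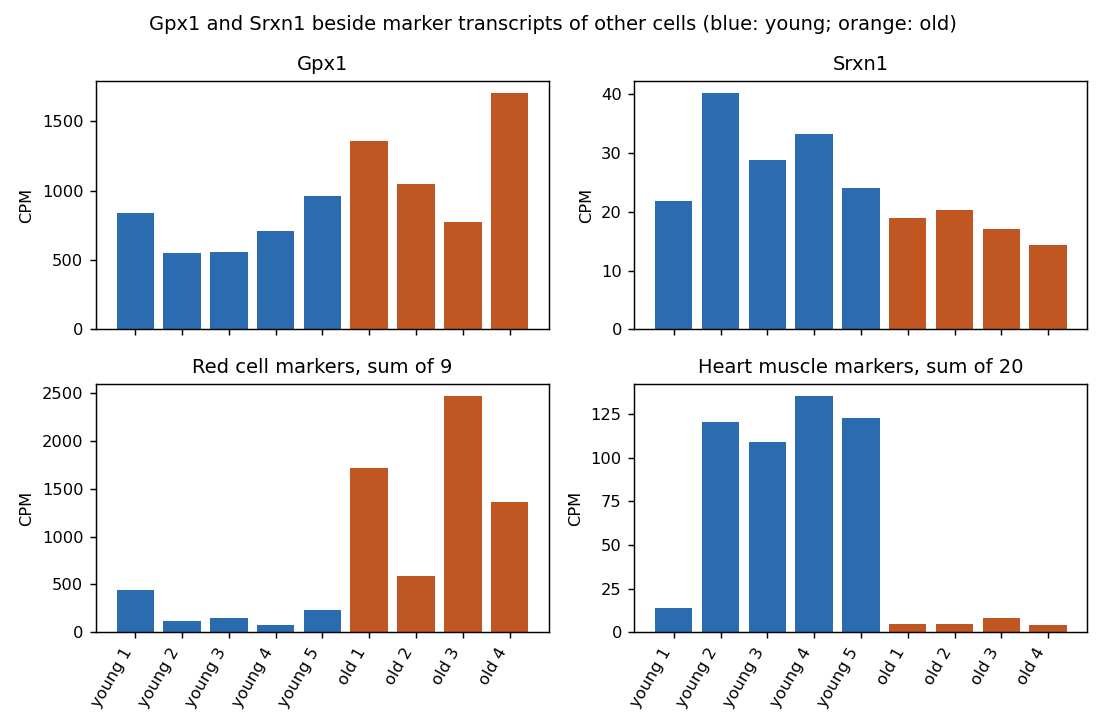
CPM of Gpx1 and Srxn1 (upper bars) and summed CPM of 9 red cell and 20 heart muscle markers (lower bars) in 5 young and 4 old rats. The red cell sum is high in all old livers and highest in old 3, where Gpx1 is lowest for its group. Heart markers are high in young 2 to 5 only, with 14.0 CPM in young 1. The parts of red cell and heart RNA in Gpx1 and Srxn1 were not tested.

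The thioredoxin genes, whose products reduce peroxiredoxins and other proteins, did not pass either. Txn1, the cytosolic thioredoxin, lay at 79.6 to 102 CPM in young livers and at 146, 104, 105 and 95.3 CPM in old 1 to 4 (log2 fold change 0.25 ± 0.14, edgeR adjusted p = 0.400). Txn2, the mitochondrial thioredoxin, lay at 135 to 146 CPM in young livers and at 188, 161, 115 and 115 CPM in old 1 to 4. Old 1 and old 2 were above and old 3 and old 4 below all young livers, and the fitted difference was close to 0 (log2 fold change 0.06 ± 0.15, adjusted p = 0.859). Txnrd1, the cytosolic reductase and an NRF2 target, lay at 94.5 to 132 CPM and 96.8 to 113 CPM (log2 fold change -0.09 ± 0.11, adjusted p = 0.709).

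Of the pentose phosphate genes, Taldo1, for transaldolase, ranged from 91.0 to 117 CPM among young and from 86.2 to 113 CPM among old livers (log2 fold change -0.12 ± 0.11, edgeR adjusted p = 0.602). Tkt, for transketolase, lay at 191 to 267 CPM and 210 to 236 CPM (log2 fold change -0.06 ± 0.11, adjusted p = 0.805). Both intervals lay within 1.5-fold.

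Metallothioneins bind zinc and copper through many cysteines and are induced by metals and by glucocorticoids. Their levels differed more between animals than between ages. Mt1a, named Mt1 by RefSeq, lay at 60.4, 248, 64.5, 61.8 and 89.3 CPM in young 1 to 5 and at 132, 58.9, 10.3 and 103 CPM in old 1 to 4. Young 2 was the highest and old 3 the lowest of all livers, 24.0 times apart. Mt2A lay at 1.41, 8.38, 1.32, 1.99 and 2.61 CPM in the young and at 5.85, 2.59, 0.507 and 3.01 CPM in the old livers. Young 2 was again highest and old 3 lowest, with old 1, old 4 and young 5 next below young 2 for both genes. The log2 fold changes were -0.47 ± 0.68 and -0.07 ± 0.70 (edgeR adjusted p = 0.762 and 0.967), with 95% intervals of the old over young ratio from 0.251 to 2.09 and from 0.321 to 2.82. Mt1m, chosen here after its values were seen, had its highest value (5.79 CPM) in young 2 and its lowest (0.323 CPM) in old 3 as well. RefSeq lists Mt1, Mt2A, Mt3 and Mt4 next to each other on chromosome 19 and calls Mt1m and 3 further Mt1 copies on other chromosomes pseudogenes. How reads shared by such copies were counted is not given in the sources used here, so each of these genes is uncertain, and the part of shared reads in their common order was not tested.

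**Figure D5:**
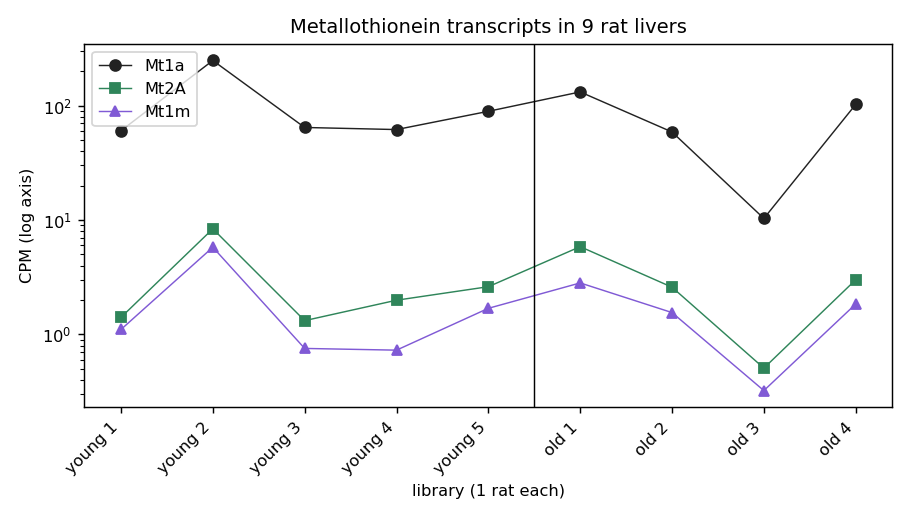
CPM (log axis) of Mt1a, Mt2A and the related Mt1m in each of 9 rat livers, with a line between young and old. All 3 peak in young 2 and are lowest in old 3, from 248 to 10.3 CPM for Mt1a.

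Metallothionein promoters carry metal response elements, which the zinc sensor MTF1 binds. The 250 bases before the start of each gene are shown because both genes varied together between the animals. They come from RefSeq (GRCr8, chr19:10832976-10833225 for Mt1 and chr19:10838709-10838958 for Mt2A, both on the minus strand). Capitals mark the metal response core TGCACNC or TGCGCNC and the antioxidant response core TGACNNNGC, searched on both strands.
Mt1: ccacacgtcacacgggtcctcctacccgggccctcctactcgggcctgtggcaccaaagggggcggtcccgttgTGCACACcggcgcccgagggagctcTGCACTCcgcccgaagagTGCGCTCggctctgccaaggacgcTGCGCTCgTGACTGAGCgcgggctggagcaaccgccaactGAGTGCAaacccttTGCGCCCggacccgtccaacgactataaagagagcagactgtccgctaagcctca
Mt2A: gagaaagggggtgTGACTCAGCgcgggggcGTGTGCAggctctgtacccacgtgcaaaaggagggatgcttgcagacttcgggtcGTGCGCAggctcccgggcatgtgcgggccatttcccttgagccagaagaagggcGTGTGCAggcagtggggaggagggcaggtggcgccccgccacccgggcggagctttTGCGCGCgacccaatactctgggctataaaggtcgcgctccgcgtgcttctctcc
The Mt1 window held 6 metal response cores and the Mt2A window 4. At least 1 such core was found in 22.5% of the 27457 genes of the promoter table and 4 or more in 0.299%. Each window also held 1 antioxidant response core, and none of these matches overlapped another.

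Within the 250 bases before the start, the antioxidant response core was found in 7 of the 27 antioxidant genes with a promoter sequence (25.9%). The share was 11.0% of all genes in the promoter table. Beside Mt1 and Mt2A these were Gclm, Txnrd1, Prdx1, Sod2 and Gpx2, whose matches are shown with up to 16 bases on each side to compare their letters, with the core in capitals and each gene's own strand 5′ to 3′ (GRCr8).
Gclm, chr2:213031947-213031987, plus strand: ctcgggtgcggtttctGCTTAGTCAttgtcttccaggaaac
Txnrd1, chr7:22755958-22755998, minus strand: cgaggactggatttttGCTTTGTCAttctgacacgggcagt
Prdx1, chr5:135383755-135383795, plus strand: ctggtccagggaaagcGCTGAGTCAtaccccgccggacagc
Sod2, chr1:50050179-50050219, minus strand: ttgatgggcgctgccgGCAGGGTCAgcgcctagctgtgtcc
Gpx2, chr6:101230034-101230062, minus strand: gtgggtacctggtttcGCTAAGTCAttct
All 5 hold the core on the reverse strand, and their log2 fold changes between the ages were -0.08, -0.09, -0.10, 0.11 and -1.62, none past the test. The 250-base windows of Nqo1, Osgin1 and Srxn1 hold no match to the antioxidant response core, and bases farther from the start were not searched.

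The wider pathway was followed in a list of 113 further genes of NRF2 partners and targets, glutathione, thioredoxin, selenium, NADPH and metal handling, of which 107 were in the table and 98 were tested. By edgeR 0 of 98 were called, against 1.00% of all genes, and 14 had an unadjusted p under 0.05 (8 with larger and 6 with smaller old values), against 15.9% of all genes (8.94% and 6.96%). DESeq2 called 3, namely Ggct higher and Me1 and Nadk lower, against 4.74% of all genes it adjusted, and limma-voom called 0, against 0.532%. None of these shares of the list was above that of all genes. The median log2 fold change was 0.07, beside 0.01 over all genes. Me1, the NADPH-producing malic enzyme, lay at 55.3, 42.0, 77.0, 65.8 and 26.0 CPM in young 1 to 5 and at 28.8, 26.7, 33.0 and 18.4 CPM in old 1 to 4. Only young 5 lay within the old range, and the log2 fold change was -0.99 ± 0.30 (edgeR adjusted p = 0.147; DESeq2 0.0214).

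Ggct, which breaks down gamma-glutamyl amino acids of the glutathione cycle, ranged from 31.8 to 46.6 CPM among young and from 47.4 to 68.0 CPM among old livers, without overlap (log2 fold change 0.52 ± 0.14, edgeR adjusted p = 0.114; DESeq2 0.0274). Glrx3, a glutaredoxin of iron-sulfur cluster handling, lay at 34.2 to 43.8 CPM and 45.8 to 61.8 CPM, also without overlap (log2 fold change 0.38 ± 0.12, edgeR adjusted p = 0.153). In the wider list the groups did not overlap for 5 of 98 genes (3 old above and 2 old below). Over all genes this share was 6.53% (3.40% old above and 3.12% old below). Hmox1, the haem oxygenase that NRF2 induces and macrophages also make, lay at 11.4, 31.3, 47.6 and 22.8 CPM in old 1 to 4, with young values of 12.1 to 23.9 CPM (log2 fold change 0.70 ± 0.37, adjusted p = 0.390). The 10 of 11 listed Kupffer cell and macrophage markers in the table summed to 80.2, 321, 786 and 405 CPM in old 1 to 4 and to 158 to 373 CPM in young livers, with Cd5l at 0 in all libraries. Both measures were lowest in old 1 and highest in old 3, while old 2 had more Hmox1 than old 4 and a smaller marker sum, and the part of these cells in the Hmox1 values was not tested. The log2 fold change was -0.28 ± 0.14 for Sqstm1, whose product p62 binds KEAP1 (edgeR adjusted p = 0.355), and for Txnip, which binds thioredoxin, 0.06 ± 0.11 (adjusted p = 0.795).

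Spread between animals differed from gene to gene. In the young group the SD of log2 CPM was 0.03 for Prdx6, 0.05 each for Txn2, Prdx4 and Prdx3, 0.79 for Nqo1, 0.87 for Mt1a and 1.07 for Mt2A. The SD was larger in the old than in the young group for 20 of 29 antioxidant genes, a share near the 73.4% of all genes. Old 1 held the highest value of 11 of the 29 genes and the lowest of 0, against 23.0% and 22.4% of all genes. Old 3 held the lowest value of 8 and the highest of 0, against 13.5% and 15.5%. Sod1, Sod2, Gpx4, Prdx2, Prdx4, Txn1 and Txn2 were among those highest in old 1, the library whose counts were all even. A fit with the counts of old 1 halved called 0 antioxidant genes, as the main fit did. That fit cannot decide the part of this property, since CPM is scaled to depth and halving every count of a library leaves its CPM nearly unchanged. The part of this property in those values was not tested otherwise.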

How the data were processed

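The authors deposited raw counts per gene symbol, whole numbers without normalization, for 9 liver libraries. RNeasy columns gave the RNA and a TruSeq kit the libraries, per the labels' protocols. BWA was the aligner, per the submitters' processing notes; which version, build, annotation and counter were used is not given in the sources used here. Genes passed filterByExpr (minimum count 10, minimum total 15), libraries were scaled by TMM, and the ages were compared by the robust quasi-likelihood F test of edgeR, two-sided, with Benjamini-Hochberg adjustment over 12778 genes. SE is the log2 fold change over the root of F, and intervals are at 95%. CPM uses TMM-scaled totals; log2 CPM for SDs and permutation tests adds 0.5 counts. The 3-count floor covers counting error only, since reads are not independent molecules. DESeq2 kept its own filtering. Versions were edgeR 4.0.16, DESeq2 1.42.0 and limma 3.58.1 in R 4.3.3, with matplotlib 3.10.9 in Python 3.11.15. The edgeR step was tested on simulated data.

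The antioxidant genes and lists were chosen with earlier results of these data known. The genes named are all antioxidant genes in the table, 5 fixed pathway genes (1 is not reported here), and the 3 pathway genes with the smallest p, since fewer than 3 passed. Nadk and Mt1m were named after their values were seen. All 30 symbols matched RefSeq (GRCr8), and 27 had a promoter sequence. No replicates agreed within counting noise.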

Additional observations from a re-analysis of the deposited data

Results flagged for a closer look

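In 74 groups of 4 or 5 livers (the named genes, by age), a lone extreme value was looked for. Of these groups, 9 held 1 whose gap to its nearest neighbour exceeded Dixon's 95% critical value. Chance gives about 1 in 20 only for independent groups of normally distributed values. CPM was used without logs, and genes such as Mt1a and Mt2A varied together, so the 9 cannot be set against that share. Among the young livers, the highest values were 248 CPM for Mt1a and 8.38 CPM for Mt2A in young 2, 21.5 CPM for Nqo1 in young 1, and 56.7 CPM for Keap1 and 154 CPM for Osgin1 in young 4. Low extremes in this group were 14.7 CPM for Sod3 in young 2 and 162 CPM for Prdx1 in young 1. In the old group, old 1 stood apart with 0.987 CPM for Gpx2, against at most 0.138 CPM in the other old livers, and with 68.0 CPM for Ggct, against at most 50.8 CPM.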

How the results depend on the processing

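Across 21 alternatives, 0 antioxidant genes were called by edgeR or limma-voom, except 1 lower with library totals only (Srxn1) and 1 higher without old 2 (Nqo1); leaving out single libraries gave 0 to 1 higher and 0 lower. DESeq2 called 3 higher and 1 lower, and 1 higher and 2 lower of the wider list; without old 3 and old 4 together 1 of that list (Msrb1) was higher. All genes called higher and lower numbered 84 and 44, and 407 and 281 by DESeq2, 41 and 27 by limma-voom, 27 and 16 with the replicate block, 20 to 115 and 10 to 86 without single libraries, 0 and 0 with young 1 alone against old (1 young liver, assumed to vary like the old). The 128 calls of both directions became 35, 34, 30 and 39 without young 2, 3, 4 or 5, 60 without old 1 and 201 without old 2. Lower genes numbered 208 with library totals only and 26 without old 3 and old 4 together. The median of the antioxidant genes was -0.06, and -0.24, 0.10 and 0.18 with library totals only, without old 3 and old 4 together, and with young 1 alone. The replicate numbers of the labels were not used as pairs in the main fit. Same-numbered deviations correlated at -0.08, 0.11, 0.30 and -0.16, and only old 3 correlated best with its own number. These correlations are too few to exclude a pairing. The block called 0 antioxidant genes, as the main fit did, so its count cannot decide this either.

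Some log2 changes switched sign, most of them small, but also those of Gpx2 (-1.62) and Mt1a (-0.47). With library totals only they were -0.16 for Keap1, -0.070 for Sod2, -0.092 for Gpx4, -0.0068 for Prdx4, -0.13 for Txn2 and -0.11 for Txnip. With the replicate block Gclm was at 0.052. Without old 3 and old 4 together they were 0.00094 for Gclm, 0.085 for Cat, 0.10 for Prdx1, 0.12 for Prdx5 and 0.42 for Mt2A. With young 1 alone they were 0.23 for Gclm, 0.033 for Txnrd1, 0.18 for Gsr, 0.11 for Cat, 0.18 for Gpx2, 0.10 for Prdx1, 0.0060 for Prdx3, 0.068 for Prdx5, 0.081 for Taldo1, 0.21 for Tkt, 0.34 for Mt1a, 1.10 for Mt2A, 0.087 for Sqstm1 and -0.15 for Txnip. Without single libraries they ran from -0.027 to 0.081 for Keap1, -0.19 to 0.040 for Gclm, -0.11 to 0.22 for Gpx4, -0.11 to 0.024 for Prdx3, -0.25 to 0.014 for Prdx5, -0.089 to 0.16 for Txn2, -0.87 to 0.14 for Mt1a and -0.64 to 0.72 for Mt2A. The causes were not tested. Depth limits Slc7a11 and Gpx2, which had 1 to 54 counts per library.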
